A study of Arabidopsis thaliana with 12 samples.

Results

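The genes described here encode proteins of the cytosolic ribosome of Arabidopsis: 41 of the 32833 genes counted, chosen by gene identifier as members of families of the large subunit (29 genes) and of the small subunit (12 genes). Their mRNA was read by poly(A) RNA-seq in whole Col-0 seedlings grown for 16 days under constant light, in 12 libraries of 4 genotypes with 3 libraries each: *se-1*, *cbp20*, *cbp80* and WT. Each library came from its own pool of plants. All plants, WT included, were kept on ice while they were collected, and none was treated. *se-1* is a hypomorphic allele of SERRATE (SE), a protein of microRNA processing and splicing, and *cbp20* and *cbp80* are mutants of both proteins of the complex that binds the cap of nuclear RNA. The mutations are present in every tissue of the plant.

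The cytosolic ribosome consists of a large and a small subunit, and each of its proteins is present about once per particle, with the acidic stalk proteins as the known exception. In Arabidopsis each ribosomal protein is encoded by a small family of paralogs, of which some are used much more than others. Mutants of single paralogs are known for pointed first leaves, altered leaf polarity or embryos that fail to develop. Transcription of these genes is known to follow growth, and their promoters are known for a pair of short elements, the telo-box and site II.

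The libraries held 18565569 to 27068656 read pairs counted on genes, and the lowest correlation of log2 counts between replicates, across genes, was 0.993. A count of 3, taken as the floor of detection, corresponded to 0.111 to 0.162 CPM (a gene's counts per 1e6 counts of its library) and covers counting error only. All CPM values that follow are also scaled between libraries by TMM, as described below. The mutated genes were read first as a check of the labels. *CBP20* had 12.3, 13.6 and 11.2 CPM in *cbp20*, against 36.1, 33.3 and 39.4 CPM in WT. *CBP80* had 38.5, 31.3 and 38.4 CPM in *cbp80*, against 35.8, 43.4 and 41.8 CPM in WT, and *SE* had 78.0, 80.8 and 81.3 CPM in *se-1*, against 81.0, 87.7 and 81.6 CPM in WT. The ranges of *CBP80* overlapped, and the log2 fold changes of -0.16 for *CBP80* in *cbp80* and -0.06 for *SE* in *se-1* did not pass the test (adjusted p = 0.174 and 0.491 by the quasi-likelihood test of edgeR, adjusted over all genes after Benjamini and Hochberg). The total counts of these genes therefore check the label of *cbp20* but not those of *cbp80* and *se-1*.

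The ribosomal protein genes are spread over the 5 nuclear chromosomes and belong to 22 families, of which 15 are represented by at least 2 paralogs and 7 by 1 gene. The start and end of all 41 genes are the same in the count table (TAIR10) and in the RefSeq annotation of TAIR10.1. In their first annotated isoform they have 0 to 6 introns, and 2 are intronless: AT1G70600 and *RPL27AB* of the L27a family. Together they took 0.942% to 0.998% of the counts in *se-1*, 0.990% to 1.05% in *cbp20*, 0.993% to 1.02% in *cbp80* and 0.933% to 0.988% in WT. In whole seedlings, fewer cells of a type and less RNA per cell cannot be told apart.

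The genes differed widely in level. Per kb of exon, the highest means were those of AT5G20290, an S8 gene, with 954, 961 and 958 CPM per kb in *se-1*, *cbp20* and *cbp80* and 808 CPM per kb in WT, and of *EMB2386*, an L19 gene whose loss arrests the embryo, with 807, 780.4, 794 and 765 CPM per kb in the same order of genotypes. *RPL3A*, which lies close to the peptidyl transferase centre of the ribosome, followed with 417, 405 and 410.2 CPM per kb in *se-1*, *cbp20* and *cbp80* and 370.2 CPM per kb in WT, with AT1G70600 just above it in *cbp80*. At the low end, AT2G40010 (P0) had 1.31, 1.44 and 1.73 CPM per kb in *se-1*, *cbp20* and *cbp80* and 1.44 CPM per kb in WT. AT5G59240 (S8) had 4.08, 3.86, 4.95 and 3.28 CPM per kb, and *RPL10B* had 9.13, 11.3, 11.7 and 9.08 CPM per kb, again in *se-1*, *cbp20*, *cbp80* and WT. These 3 genes are minor paralogs of families whose main member was among the abundant mRNAs.

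**Figure D1:**
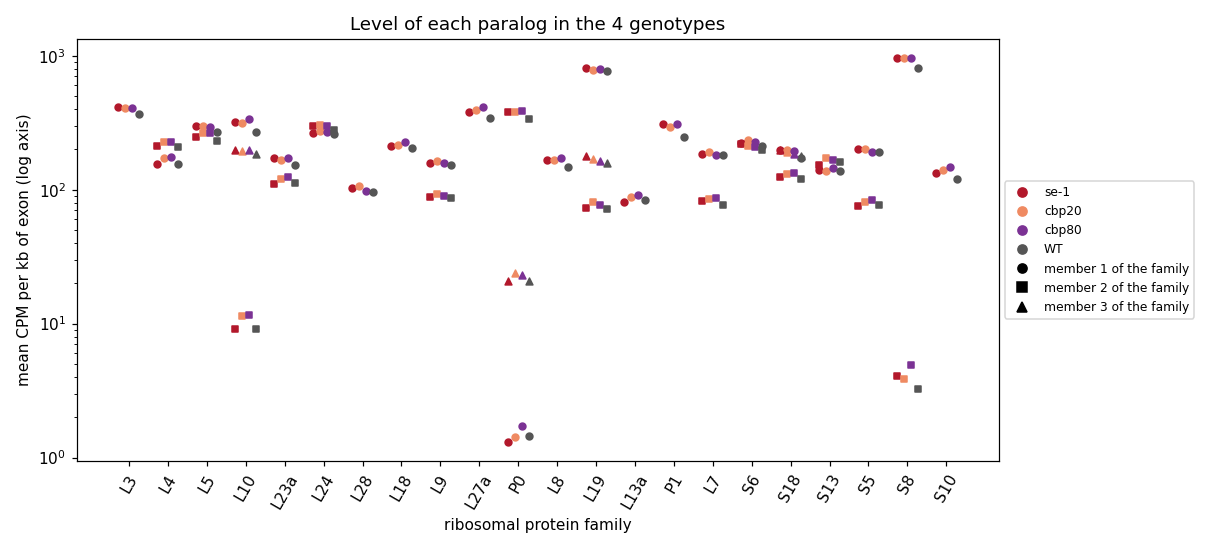
Mean level of each ribosomal protein gene in CPM per kb of exon (vertical log axis) for each family (horizontal axis), with colours for *se-1*, *cbp20*, *cbp80* and WT from left to right and marker shapes for the paralogs of a family. The P0, L10 and S8 families hold a paralog far below the main one, while both L24, both S6 and both S13 paralogs lie close together.

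Counting limited what could be read for a few genes. *RPL27AB* had 0 counts in all 12 libraries, which allows up to 3 counts in each. Of its exon bases, 98.3% also lie in exons of AT1G23300, a gene on the other strand, and the counting left out read pairs that fall on more than 1 gene. AT2G40010, for which 50.2% of the exon bases lie in exons of the antisense gene AT2G40008, is subject to the same rule, so its low level is a level of the remaining exon part. A second rule concerns pairs that align to several places, which were not counted either. The tandem L9 genes *PGY2* (chromosome 1, 12023225 to 12024783) and AT1G33120 (chromosome 1, 12010879 to 12012547) have coding sequences that are 99.1% identical, and 57.1% and 53.4% of the windows of 50 bases in their transcripts occur elsewhere in the genome or in another transcript. Their counts come from the remaining parts and are uncertain. Between the other pairs of paralogs the coding identity was 78.0% to 92.7%. Apart from *PGY2* and AT1G33120, at most 4.81% of a gene's windows were shared, and 29 of the 41 genes shared none.

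The region around each start site was searched for the telo-box, AAACCCTA, and for site II, TGGGCC or TGGGCT, on both strands from 250 bases before to 50 bases after the annotated start of the gene. A telo-box was found at 22 of 41 genes (53.7%), against 6.25% of all 31345 protein-coding genes, and site II at 34 of 41 (82.9%), against 20.1% of all. At least 2 site II matches were found at 28 genes (68.3%), against 12.3% of all. Among 156 other genes of cytosolic ribosomal proteins, 46.2% had a telo-box and 77.6% had site II. A match is only a match of letters. The 150 bases before the start are shown for 4 genes that were called in several mutants and for the S5 paralogs, of which only *RPS5A* had matches, as read from the TAIR10.1 genome (RefSeq) on the strand of the gene, with site II and the telo-box in capitals:
AT1G01100 (P1), chr1:51211-51360, minus strand: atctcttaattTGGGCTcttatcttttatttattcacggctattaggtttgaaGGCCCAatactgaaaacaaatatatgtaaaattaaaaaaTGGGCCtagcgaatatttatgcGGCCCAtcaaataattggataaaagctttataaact
AT5G20290 (S8), chr5:6853107-6853256, minus strand: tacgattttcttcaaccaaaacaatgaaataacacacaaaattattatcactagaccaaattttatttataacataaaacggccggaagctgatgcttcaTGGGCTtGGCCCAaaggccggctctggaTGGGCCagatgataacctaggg
RPS10B (S10), chr5:16610693-16610842, minus strand: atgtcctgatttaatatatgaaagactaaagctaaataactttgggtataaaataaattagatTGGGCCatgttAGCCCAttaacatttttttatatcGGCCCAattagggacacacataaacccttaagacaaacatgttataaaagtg
RPL10A (L10), chr1:4887964-4888113, plus strand: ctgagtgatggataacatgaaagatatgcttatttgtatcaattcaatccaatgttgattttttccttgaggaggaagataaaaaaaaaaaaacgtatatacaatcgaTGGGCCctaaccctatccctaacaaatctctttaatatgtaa
RPS5A (S5), chr3:3779546-3779695, minus strand: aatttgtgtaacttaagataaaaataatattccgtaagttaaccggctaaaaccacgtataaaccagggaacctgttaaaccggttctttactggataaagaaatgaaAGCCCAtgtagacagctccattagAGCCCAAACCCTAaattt
RPS5B (S5), chr2:15649472-15649621, minus strand: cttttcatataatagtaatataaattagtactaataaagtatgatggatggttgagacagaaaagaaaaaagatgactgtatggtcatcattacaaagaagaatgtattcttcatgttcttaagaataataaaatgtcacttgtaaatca

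AT1G01100 had 4 site II matches in its window and AT5G20290 and *RPS10B* had 3 each. The telo-box of AT5G20290 begins 5 bases before the start and runs over it, so it is not in capitals. *RPS5A* had 2 site II matches and a telo-box that overlaps the second of them by its first base, whereas *RPS5B* had no match of either kind. *RPS18A*, called in all 3 mutants below, had a telo-box after its start and no site II match.

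Each mutant was then compared with the same 3 WT libraries, so the 3 comparisons are not independent of each other. Of the 41 genes, 40 had enough counts for a test (at least 10 counts in at least 3 libraries), all but *RPL27AB*. The ribosomal protein mRNAs stood slightly above WT in all 3 mutants with TMM scaling, which sets libraries level on the bulk of genes. None was called lower. With scaling to library size alone, they did not stand above WT in *se-1*. Their median log2 fold change was then -0.002, 0.08 and 0.06 in *se-1*, *cbp20* and *cbp80*. The median over all genes with that scaling was -0.09, -0.05 and -0.08 in the same order. Genes with an adjusted p under 0.05 in this edgeR test were called, and log2 fold changes of single genes are given ± their standard error.

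In *se-1*, 6 of 40 genes were called higher and 0 lower. This is 15% of the genes, against a background of 17.6% called higher and 16.2% called lower among all 20491 genes tested. At an unadjusted p under 0.05, 12 genes were higher and 0 lower. The share of all genes at that threshold was not computed. Here and below, such counts of genes therefore have no background to be read against. The median log2 fold change was 0.08, against -0.004 over all genes, and 34 of 40 values were positive with TMM scaling but only 19 of 40 with scaling to library size alone. All 3 *se-1* libraries lay above all 3 WT libraries for 12 genes (background 23.1%). The 6 calls became 3 without the first or the third WT library or the first *se-1* library, and 1 without the third *se-1* library, whereas DESeq2 made 10. Over all genes, the 3602 calls higher became 3085, 3134 and 3115, then 2826, and 3558 with DESeq2, in the same order of settings.

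In *cbp20*, 5 of 40 genes were called higher (12.5%, background 10.2%) and 0 lower (background 9.48%), and at an unadjusted p under 0.05 16 were higher and 0 lower. The median log2 fold change was 0.13, against -0.001 over all 20475 genes, and 38 of 40 values were positive, 37 with scaling to library size alone. All 3 *cbp20* libraries lay above all 3 WT libraries for 21 of 40 genes (background 17.9%). The 5 calls became 1, 3 and 2 without the first, the second and the third WT library, and 1 without the first *cbp20* library, whereas DESeq2 and a fit with the replicate number as a block each made 10. Over all genes, the 2090 calls higher became 1652, 1536 and 1730, then 1484, and 2110 and 2418, in the same order of settings.

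In *cbp80*, 14 of 40 genes were called higher (35%, background 20.1%) and 0 lower (background 18.6%), and at an unadjusted p under 0.05 19 were higher and 0 lower. The median log2 fold change was 0.14, against -0.008 over all 20543 genes, and 39 of 40 values were positive, 29 with scaling to library size alone. All 3 *cbp80* libraries lay above all 3 WT libraries for 20 of 40 genes (background 24.8%). The 14 calls became 9 without the first WT library and 7 without the third *cbp80* library. Over all genes, the 4125 calls higher became 3663 and 3387 in these fits.

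The shifts were small. Among called genes the fold change was 1.12 to 1.26 in *se-1*, 1.15 to 1.25 in *cbp20* and 1.11 to 1.52 in *cbp80*. The choice of scaling bears on all of them: with library size alone, the calls over all genes were 2649 higher and 5074 lower in *se-1* (3602 and 3319 with TMM), 1676 and 2608 in *cbp20* (2090 and 1941) and 3130 and 5529 in *cbp80* (4125 and 3830), and 1, 0 and 6 ribosomal protein genes were then called higher. Summed over the 41 genes, the TMM-scaled level was 10326, 9547 and 10149 CPM in *se-1*, 10410, 10132 and 9868 CPM in *cbp20*, 10037, 10211 and 10363 CPM in *cbp80*, and 9101, 9508 and 9012 CPM in WT. All 9 mutant libraries were thus above the highest WT library, with the second *se-1* library the closest to it.

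The genes also shared shifts between libraries of 1 genotype. In the second *se-1* library 20 of 40 genes were above their WT mean, against 37 and 35 in the other *se-1* libraries. In the second WT library 31 of 40 were above the WT mean, against 11 and 14 in the other WT libraries. Without the second *se-1* library, 8 of 40 genes were called higher in *se-1*, against 3068 of all 20283 genes tested. The median log2 fold change was then 0.12, against -0.006 over all genes.

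**Figure D2:**
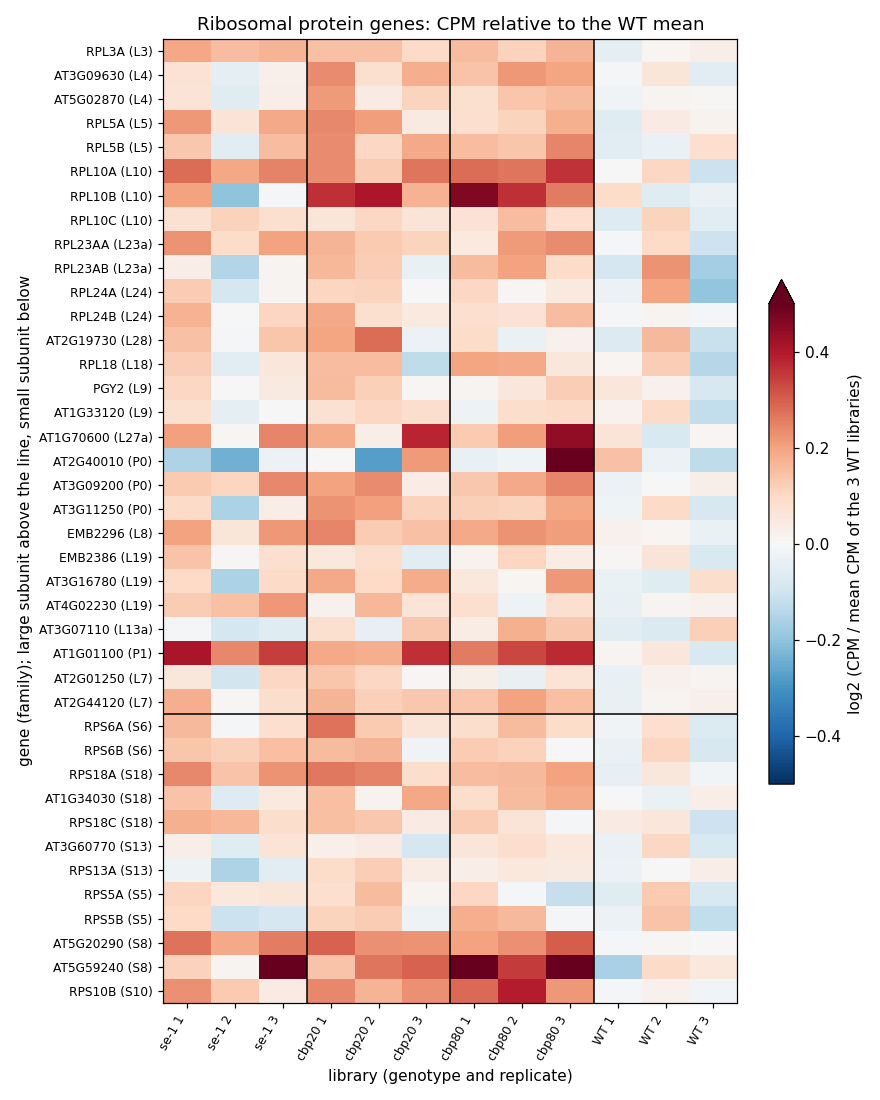
Level of the 40 detected ribosomal protein genes (rows, large subunit above the line) in each of the 12 libraries (columns, *se-1*, *cbp20*, *cbp80* and WT from left to right), as log2 of CPM over the mean CPM of the 3 WT libraries. Red prevails in the mutant columns, except in the second *se-1* library, where 20 of 40 genes lie above the WT mean.

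Calls were made in both subunits. Of 28 large subunit genes tested, 4, 2 and 9 were called higher in *se-1*, *cbp20* and *cbp80*, with median log2 fold changes of 0.08, 0.13 and 0.15. Of 12 small subunit genes, 2, 3 and 5 were called higher in the same order of mutants, with medians of 0.11, 0.12 and 0.11. Over all genes, 17.6%, 10.2% and 20.1% were called higher in these mutants. The shares called in *se-1* were below this background in both subunits, and so was that of the large subunit in *cbp20*. Over all 40 genes, 16 were called in at least 1 mutant, and of these 3 in all 3 mutants, 3 in exactly 2 and 10 in 1 alone. The matching shares of all genes were not computed. Since the 3 comparisons also use the same WT libraries, these counts have no background to be read against. With scaling to library size alone, the calls left were AT1G01100 in *se-1* and AT1G01100, *RPL10A*, *RPL10B*, AT5G20290, AT5G59240 and *RPS10B* in *cbp80*. A call in 1 mutant alone does not show a difference between mutants, which is tested further below.

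The 3 genes called in every mutant were AT1G01100, AT5G20290 and *RPS18A*. AT1G01100 (chromosome 1, 49909 to 51210, minus strand, 3 introns) encodes a P1 protein of the acidic stalk, which recruits elongation factors to the large subunit. It had 279.5, 249 and 268 CPM in *se-1*, 240.4, 239 and 271 CPM in *cbp20*, 252, 265 and 272 CPM in *cbp80*, and 213, 219 and 199.8 CPM in WT. Every mutant library was above every WT library. The log2 fold change of *se-1* against WT was 0.34 ± 0.07 (adjusted p = 0.00192). That of *cbp20* was 0.25 ± 0.07 (adjusted p = 0.0219) and that of *cbp80* was 0.32 ± 0.06 (adjusted p = 0.000655). The calls in *se-1* and *cbp80* held in all 12 alternative fits of each comparison, that in *cbp20* in 8 of 12, lost without the first or the third WT library, the third *cbp20* library or with library size alone.

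AT5G20290 (chromosome 5, 6851341 to 6853106, minus strand, 4 introns) encodes an S8 protein of the small subunit and was among the most abundant of these mRNAs. It had 1089, 1029 and 1079 CPM in *se-1*, 1109, 1056 and 1055 CPM in *cbp20*, 1037, 1057 and 1114 CPM in *cbp80*, and 899, 907 and 903 CPM in WT. The WT libraries were close together and the 9 mutant libraries were all higher. The log2 fold change of *se-1* against WT was 0.24 ± 0.06 (adjusted p = 0.0107). That of *cbp20* was 0.25 ± 0.07 (adjusted p = 0.0224) and that of *cbp80* was 0.25 ± 0.06 (adjusted p = 0.00525). The call in *cbp80* held in all 12 alternative fits. That in *se-1* was lost without the third *se-1* library, and that in *cbp20* without any of the WT libraries or the first *cbp20* library, and both with library size alone.

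*RPS18A* (chromosome 1, 8067864 to 8069356, plus strand, 3 introns), also known as PFL1 for the pointed first leaves of its mutant, encodes an S18 protein in the head of the small subunit. It had 159, 148 and 157 CPM in *se-1*, 161, 159.7 and 143 CPM in *cbp20*, 149, 150.4 and 154 CPM in *cbp80*, and 130.4, 139.7 and 133 CPM in WT. No mutant library reached down to the WT range. The log2 fold change of *se-1* against WT was 0.21 ± 0.06 (adjusted p = 0.0182). That of *cbp20* was 0.20 ± 0.07 (adjusted p = 0.0429) and that of *cbp80* was 0.17 ± 0.05 (adjusted p = 0.0207). With scaling to library size alone, *RPS18A* passed the threshold in none of the mutants. Its call was also lost without the first WT library in every mutant, and in *cbp20* it held in only 1 of the 6 fits without 1 library.

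*RPL10A*, *RPL10B* and *RPS10B* were called in 2 mutants each. L10 sits near the path of the tRNAs in the large subunit, and *RPL10A* is also known as SAC52, after an allele that suppresses a dwarf mutant. *RPL10A* had 416, 392 and 407 CPM in *se-1*, 404, 374 and 413 CPM in *cbp20*, 417, 413 and 441 CPM in *cbp80*, and 342, 369 and 319 CPM in WT. All mutant libraries were above all WT libraries, although the lowest *cbp20* library was close to the highest WT library. The log2 fold change was 0.24 ± 0.07 in *se-1* (adjusted p = 0.0167) and 0.31 ± 0.07 in *cbp80* (adjusted p = 0.00213). In *cbp20* it was 0.21 and missed the threshold (adjusted p = 0.0593). The call in *se-1* was lost without the third WT or the third *se-1* library.

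The minor paralog *RPL10B* (chromosome 1, 9321650 to 9323028) had 10.9, 8.28 and 9.47 CPM in *se-1*, 12.3, 12.6 and 10.7 CPM in *cbp20*, 13.1, 12.3 and 11.4 CPM in *cbp80*, and 10.1, 9.11 and 9.29 CPM in WT. The *se-1* and WT ranges overlapped, while all *cbp20* and *cbp80* libraries were above WT. Its log2 fold change of *se-1* against WT was 0.01 ± 0.11 (adjusted p = 0.969). That of *cbp20* was 0.32 ± 0.10 (adjusted p = 0.0334) and that of *cbp80* was 0.36 ± 0.10 (adjusted p = 0.00818). The call in *cbp20* was lost without the second or the third WT library or the first or the second *cbp20* library, with DESeq2 (adjusted p = 0.0628) and with library size alone, and that in *cbp80* held in all alternatives. These values rest on 177 to 334 read pairs per library. The third paralog, *RPL10C*, was called in no mutant, with log2 fold changes of 0.09, 0.08 and 0.10 in *se-1*, *cbp20* and *cbp80*.

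*RPS10B* encodes an S10 protein of the small subunit and is known from mutants with altered shoot branching. It had 142, 133 and 125 CPM in *se-1*, 143, 136 and 142 CPM in *cbp20*, 147, 159 and 141 CPM in *cbp80*, and 121, 123 and 119.9 CPM in WT. Its log2 fold change was 0.21 ± 0.06 in *cbp20* (adjusted p = 0.0170) and 0.30 ± 0.06 in *cbp80* (adjusted p = 0.00108). In *se-1*, where all libraries were also above WT, it was 0.14 (adjusted p = 0.108). The call in *cbp20* was lost without the first WT or the first *cbp20* library.

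**Figure D3:**
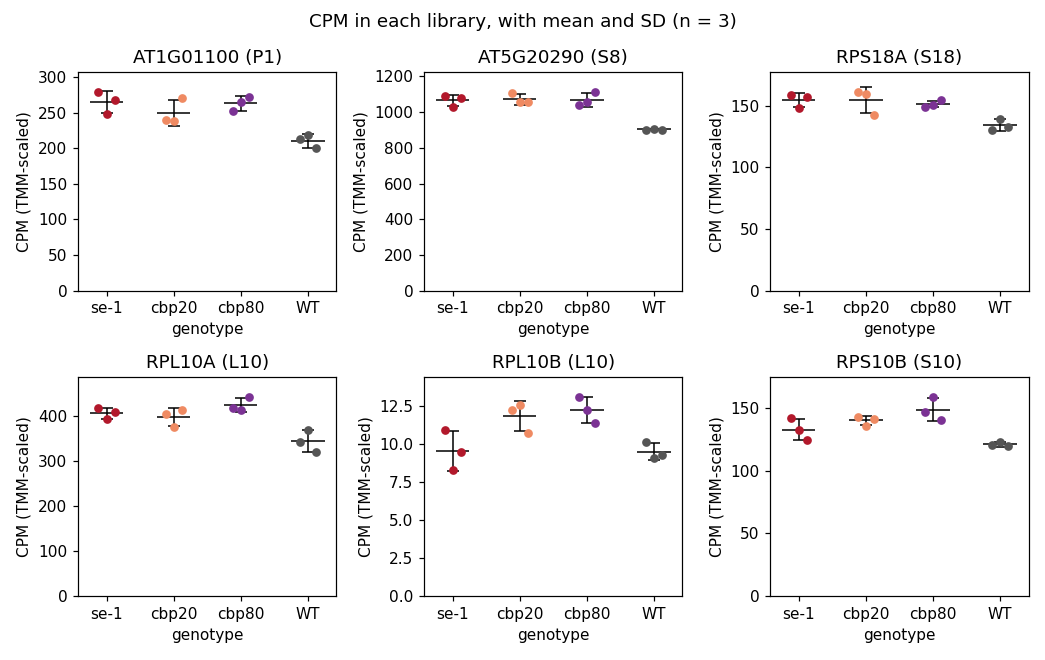
CPM of the 6 genes called in at least 2 mutants (vertical axes, from 0) in each library of *se-1*, *cbp20*, *cbp80* and WT from left to right, with the mean and SD of 3 libraries. The mutant libraries of AT1G01100, AT5G20290, *RPS18A*, *RPL10A* and *RPS10B* all lie above those of WT, and those of *RPL10B* do so in *cbp20* and *cbp80* only.

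In *se-1* alone, *RPL3A* and AT4G02230 were called. *RPL3A* had 737, 717 and 725 CPM in *se-1*, against 625, 649 and 660.1 CPM in WT, a log2 fold change of 0.17 ± 0.06 (adjusted p = 0.0460). AT4G02230, an L19 gene, had 159, 161 and 169 CPM in *se-1*, against 142, 147 and 148 CPM in WT, a log2 fold change of 0.17 ± 0.06 (adjusted p = 0.0420). The groups did not overlap for either gene, but neither call held when any single library was left out. For *RPL3A* the log2 fold changes in *cbp20* and *cbp80*, 0.13 and 0.15, were close to that in *se-1*.

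There were 8 genes called in *cbp80* alone. The largest change was that of AT5G59240, the minor S8 paralog, with 4.25, 3.73 and 5.30 CPM in *cbp80*, against 2.62, 3.13 and 3.04 CPM in WT, a log2 fold change of 0.61 ± 0.17 (adjusted p = 0.0102). It rests on 80 to 129 read pairs in a *cbp80* library and 59 to 67 in a WT library, and without the third *cbp80* library it did not pass the threshold (adjusted p = 0.0686). In *se-1* and *cbp20* its log2 fold change was 0.31 and 0.23, neither past the threshold. AT1G70600, the intronless L27a gene, had 359, 379.9 and 446 CPM in *cbp80*, against 343, 311 and 331 CPM in WT, a log2 fold change of 0.27 ± 0.08 (adjusted p = 0.0139), lost without the second WT or the third *cbp80* library. *EMB2296*, an L8 gene needed by the embryo, had 199.6, 204 and 202 CPM in *cbp80*, against 177, 176 and 171 CPM in WT, a log2 fold change of 0.21 ± 0.05 (adjusted p = 0.00646). The other 5 were AT3G09200 (P0, the anchor of the acidic stalk, log2 fold change 0.19), AT3G09630 (L4, 0.19), *RPL5B* (L5, which binds the 5S rRNA, 0.18), AT2G44120 (L7, 0.17) and AT1G34030 (S18, 0.15), with adjusted p-values between 0.0186 and 0.0465. All 5 calls were lost with library size alone. AT1G34030 passed the threshold in only 3 of 12 alternative fits, AT3G09200 and *RPL5B* in 7, and AT3G09630 and AT2G44120 in 8. Of the 6 fits without 1 library, AT3G09200 kept its call in 2, *RPL5B* in 2, AT1G34030 in 2, and AT3G09630 and AT2G44120 in 3 each. The libraries whose loss ended a call were the first and the second of WT and the first and the third of *cbp80* for *RPL5B*, and the third of WT and the second and the third of *cbp80* for AT3G09630. For AT2G44120 they were the first and the second of WT and the second of *cbp80*. For AT3G09200 and AT1G34030 they were the first and the second of WT and the second and the third of *cbp80*.

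**Figure D4:**
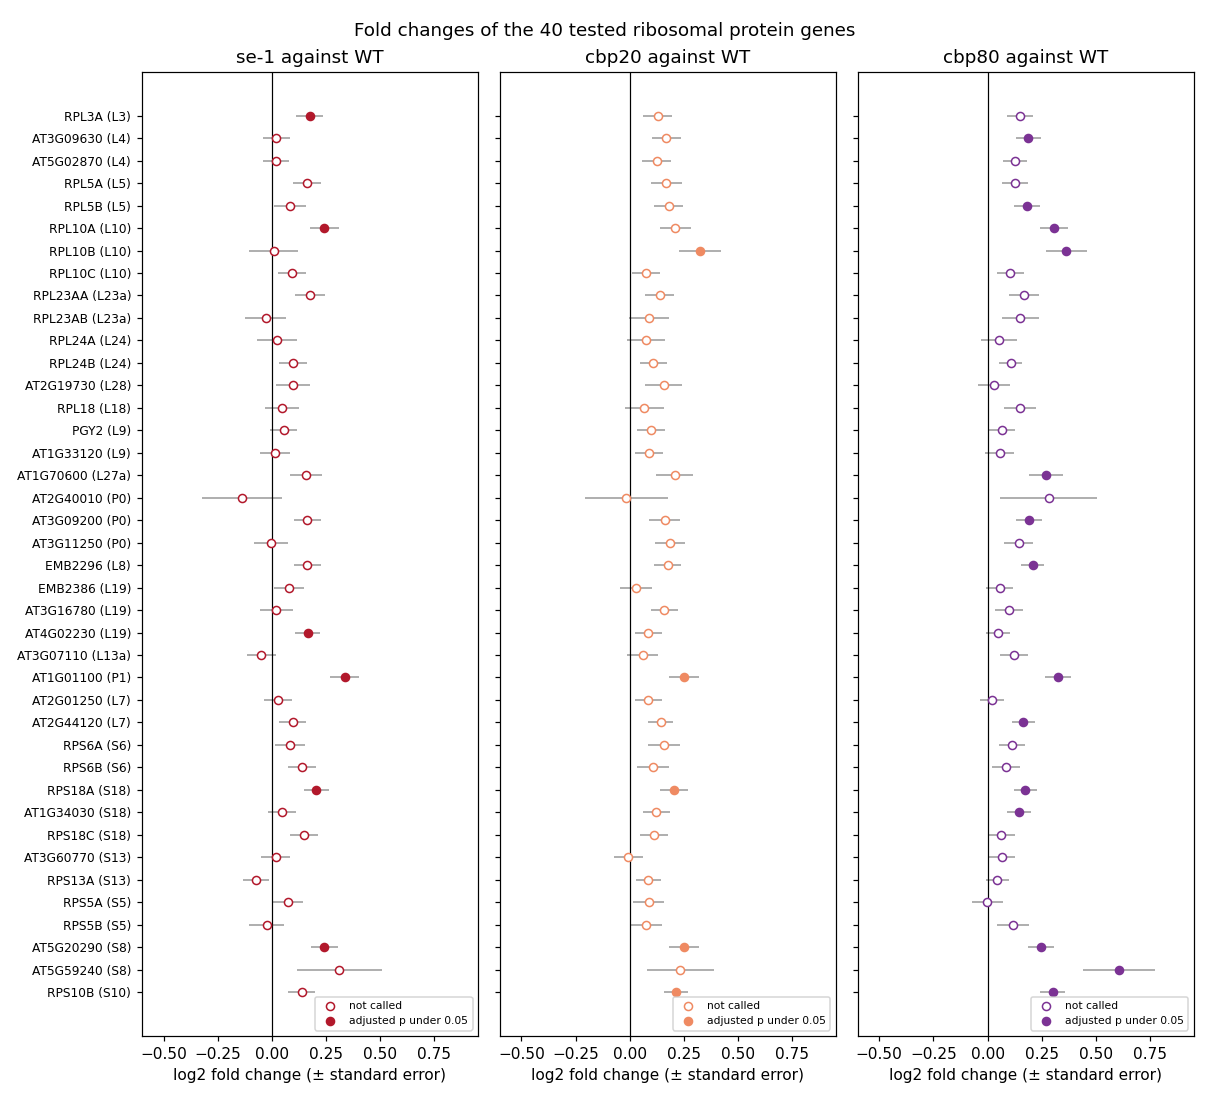
Log2 fold change with its standard error (horizontal axes) for the 40 tested ribosomal protein genes (rows) in *se-1*, *cbp20* and *cbp80* against WT (panels from left to right), with filled points for an adjusted p under 0.05. There are 6, 5 and 14 filled points, all to the right of 0, and the points of most other genes lie within 0.2 of 0.

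The remaining 24 genes were called in no mutant, *RPL10C* among them. The values that follow are log2 fold changes against WT, for each gene first of *se-1*, then of *cbp20* and last of *cbp80*. *RPL24A* had 0.02, 0.08 and 0.05, and its paralog *RPL24B*, known as STV1 for its role in translation reinitiation on mRNAs of auxin response factors, had 0.10, 0.11 and 0.11. *RPS6A*, with 0.08, 0.16 and 0.11, and *RPS6B*, with 0.14, 0.11 and 0.08, encode proteins that are phosphorylated by S6 kinases downstream of TOR. *RPL23AA* had 0.18, 0.14 and 0.17 and *RPL23AB* had -0.03, 0.09 and 0.15, both for a protein at the exit of the peptide tunnel.

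*RPS5A*, known for its activity in dividing cells and embryos, had 0.08, 0.09 and -0.001, and its paralog *RPS5B* had -0.02, 0.07 and 0.12. Of the L9 pair, *PGY2* had 0.05, 0.10 and 0.07 and AT1G33120 had 0.01, 0.09 and 0.06. *RPL5A* (PGY3), like *PGY2* known from mutants that enhance a leaf polarity defect, had 0.16, 0.17 and 0.13, each past an unadjusted p of 0.05 but not the adjusted threshold. The L4 gene AT5G02870 had 0.02, 0.12 and 0.13.

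Among the L19 genes, *EMB2386* had 0.08, 0.03 and 0.06 and AT3G16780 had 0.02, 0.16 and 0.10. The P0 gene AT3G11250 had -0.003, 0.19 and 0.14. AT2G40010 had -0.14, -0.02 and 0.28, with standard errors of 0.18 to 0.22, so its values say little at this depth. *RPS18C* had 0.15, 0.11 and 0.06, *RPL18* had 0.05, 0.07 and 0.15, and AT2G01250 (L7) had 0.03, 0.09 and 0.02. AT2G19730 (L28) had 0.10, 0.16 and 0.03 and AT3G07110 (L13a) had -0.05, 0.06 and 0.12. Of the S13 genes, AT3G60770 had 0.02, -0.01 and 0.07. Its paralog *RPS13A* (PFL2), whose mutant also has pointed first leaves, had -0.07, 0.09 and 0.05.

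The mutants were next compared with each other directly, in 1 fit of all 12 libraries, since a call in one mutant and not in another does not show that they differ. Between *se-1* and *cbp20*, 0 of 40 genes were higher (background 7.4%) and 1 was lower (background 6.24%) in *se-1*. It was *RPS13A*, with 154, 141 and 151 CPM in *se-1*, against 167, 171 and 161 CPM in *cbp20*, a log2 fold change of -0.16 ± 0.05 (adjusted p = 0.0481). The groups did not overlap, but the call held in only 2 of 12 alternative fits and in none of the 6 without 1 library. At an unadjusted p under 0.05, 0 genes were higher and 4 lower.

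Between *se-1* and *cbp80*, 0 genes were higher (background 5.49%) and 1 was lower (background 5.95%) in *se-1*, and at an unadjusted p under 0.05 0 were higher and 5 lower. The called gene was *RPL10B*, with the libraries given above and a log2 fold change of -0.36 ± 0.11 (adjusted p = 0.0392), which held in 6 of 12 alternative fits and was lost without the second or the third *se-1* library or the first or the second *cbp80* library, and with DESeq2 (adjusted p = 0.0542). Between *cbp80* and *cbp20*, 0 genes were called higher (background 5.99%) and 0 lower (background 4.17%), at an unadjusted p as well, and DESeq2 made 0 calls. There the log2 fold changes of the 40 genes ran from -0.13 to 0.37 with a median standard error of 0.06. The median over the 40 genes was -0.05 for *se-1* against *cbp20*, -0.04 for *se-1* against *cbp80* and 0.02 for *cbp80* against *cbp20*, and the last of these changed sign with scaling to library size alone and without the third *cbp20* or the third *cbp80* library. With that scaling the calls over all genes were 1237 higher and 1869 lower for *se-1* against *cbp20* (1545 and 1302 with TMM) and 1018 higher and 1144 lower for *cbp80* against *cbp20* (1251 and 870 with TMM).

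A ratio of 2 paralogs within a library is free of the scaling between libraries. It was computed for the 22 of 23 pairs of paralogs in which both genes had counts, as log2 of the counts of the lower over the higher gene. Over the 4 genotypes, 0 of 22 pairs passed an adjusted p of 0.05 by an exact permutation test of the F statistic over 15400 partitions of the 12 libraries, and 2 had an unadjusted p under 0.05. The means of the 4 genotypes spanned 0.04 to 0.35 on the log2 scale, with a median span of 0.19. No change in the balance of paralogs was detectable beyond the spread between replicates at this number of libraries.

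The smallest p was that of *RPS5B* over *RPS5A*, whose log2 ratio was -1.19, -1.35 and -1.33 in *se-1*, -1.16, -1.22 and -1.22 in *cbp20*, -1.11, -1.02 and -1.08 in *cbp80*, and -1.15, -1.17 and -1.23 in WT. The *cbp80* libraries were all above the others and the *se-1* libraries mostly below (exact permutation p = 0.00435, adjusted p = 0.0957). *RPS5B* made up 29.1%, 30.3% and 32.3% of the counts of the pair in *se-1*, *cbp20* and *cbp80*, against 30.5% in WT. The other pair with an unadjusted p under 0.05 was AT3G60770 over *RPS13A*, with -0.26, -0.22 and -0.19 in *se-1*, -0.38, -0.40 and -0.44 in *cbp20*, -0.29, -0.28 and -0.31 in *cbp80*, and -0.32, -0.21 and -0.42 in WT (exact permutation p = 0.0449, adjusted p = 0.304). The WT libraries of this pair spanned nearly the whole range of the mutants.

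The widest span between genotype means was that of *RPL10B* over *RPL10C*. The log2 ratios of *se-1*, *cbp20* and *cbp80* averaged -4.58 ± 0.22, -4.25 ± 0.11 and -4.23 ± 0.11, against -4.49 ± 0.17 in WT (SD, n = 3 each, exact permutation p = 0.0623 over the 12 libraries, adjusted p = 0.304). *RPL10B* thus stayed at 4.01% to 5.06% of the counts of this pair in every genotype. The L9 pair, whose counts are uncertain, had the narrowest span, 0.04.

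**Figure D5:**
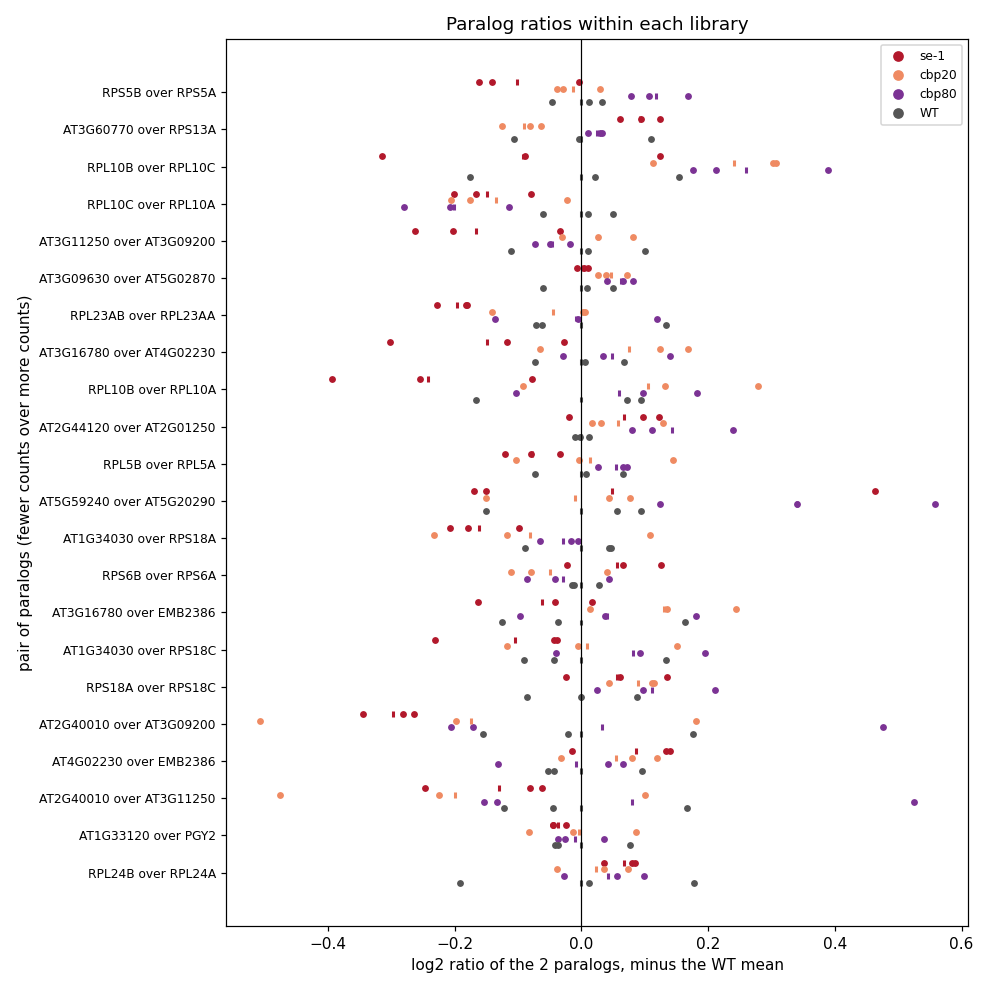
Log2 ratio of paralog counts in each library minus the WT mean of the pair (horizontal axis) for 22 pairs (rows, ordered by p), with *se-1*, *cbp20*, *cbp80* and WT from top to bottom within a row, dots for libraries and ticks for genotype means. Most mutant dots overlap those of WT, and the *cbp80* dots of *RPS5B* over *RPS5A* lie to the right of the other genotypes.

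Other genes of translation were read from lists beside these values. Over all genes, 17.6%, 10.2% and 20.1% were called higher in *se-1*, *cbp20* and *cbp80* and 16.2%, 9.48% and 18.6% lower. Of the other cytosolic ribosomal protein genes, 30 of 149 tested were called higher and 2 lower in *se-1* (median log2 fold change 0.10), 21 of 148 higher and 0 lower in *cbp20* (0.12) and 52 of 148 higher and 1 lower in *cbp80* (0.14). The largest of these changes that was called in all 3 mutants was that of *RPL30B*, with 70.3 ± 2.11 CPM in *se-1*, 75.9 ± 6.44 CPM in *cbp20*, 75.3 ± 0.560 CPM in *cbp80* and 34.7 ± 2.89 CPM in WT (SD, n = 3 each), which is larger than any change among the 40 genes. Of 11 genes of translation elongation factors, 4 were called higher and 0 lower in *se-1*, 0 and 1 in *cbp20* and 5 and 2 in *cbp80*. Of 23 genes of ribosome assembly and growth control, 1 was called higher and 1 lower in *se-1*, 5 and 1 in *cbp20* and 9 and 1 in *cbp80*. Among these, *NOP56*, a core protein of the particles that guide rRNA methylation, was higher in *cbp20* and *cbp80* by log2 fold changes of 0.26 and 0.31, and *S6K2*, an S6 kinase, was lower in all 3 mutants, by log2 fold changes of -0.59, -0.58 and -0.30 in *se-1*, *cbp20* and *cbp80* (adjusted p between 0.000862 and 0.0273 from edgeR). The other S6 kinase, *S6K1*, was called higher in *se-1*, by a log2 fold change of 0.27 (adjusted p = 0.0213 from edgeR).

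Markers of leaf, root and dividing cells were read beside these genes. Of 5 leaf markers, 5, 3 and 5 were called higher in *se-1*, *cbp20* and *cbp80*, and their summed level was 21174 to 21763 CPM in *se-1*, 12159 to 14917 CPM in *cbp20*, 14980 to 15824 CPM in *cbp80* and 8735 to 10017 CPM in WT. Of 10 markers of dividing cells, 2, 4 and 3 were called higher in *se-1*, *cbp20* and *cbp80* and 0 lower in each, with sums of 131 to 149, 140 to 156 and 135 to 155 CPM, against 125 to 129 CPM in WT. The background called higher is 17.6%, 10.2% and 20.1% in *se-1*, *cbp20* and *cbp80*, and that called lower is 16.2%, 9.48% and 18.6%. Of 10 root markers, 1 was called higher and 4 lower in *se-1*, 2 and 0 in *cbp20* and 3 and 0 in *cbp80*, and their sums were 273 to 301, 282 to 314 and 332 to 339 CPM, against 246 to 350 CPM in WT, a range that holds all 3 mutants. No marker was at 0. The part of these markers in the results on ribosomal protein genes was not tested.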

How the data were processed

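RNA was extracted from whole seedlings and poly(A) RNA was sequenced in 12 libraries, grouped by genotype as labelled. The authors removed rRNA and tRNA reads (Bowtie2 2.1.0), aligned the rest to TAIR10 (TopHat2 2.1.1) and counted read pairs on exons with featureCounts 1.5.0-p3. The deposited values are raw counts per gene, without strand, and pairs with several alignments or on several genes were not counted. The exon length per gene, which the authors gave as counted bases, served for levels per kb. The authors also deposited DESeq2 tables of each mutant against WT with fold changes and p-values, which were not used. Counts were tested with edgeR 4.0.16 in R 4.3.3 (quasi-likelihood, TMM, at least 10 counts in at least 3 libraries of the fit, Benjamini-Hochberg over all tested genes, adjusted p under 0.05). CPM are scaled by TMM over all 12 libraries, and their SD is over 3 libraries. Standard errors were derived from each fold change and its F statistic. The method was tested on simulated counts, in which genes drawn from all those tested were changed by a known fold. In *se-1*, *cbp20* and *cbp80* against WT, 11.9%, 22.4% and 16.4% of 1.2-fold changes were recovered. The shares were 43.3%, 41.8% and 46.3% at 1.3-fold and 86.4%, 86.4% and 90.9% at 2-fold. At each fold only 66 or 67 genes were changed, far fewer than were called in the data, so the adjusted threshold was stricter in the simulation. The changed genes were also drawn from all levels, so these shares are not those of the ribosomal protein genes. A gene that was not called may still have changed by folds of 1.2 or 1.3. Sequences and introns came from RefSeq (TAIR10.1). Paralogs were aligned with Biopython 1.88. The alternatives were DESeq2 size factors, library size alone, no filter, DESeq2 on all libraries, the replicate number as a block, another choice of libraries in the fit and leaving out each library. All genes of the set are named, with full statistics for the 8 largest called changes per comparison with WT, and from each list at most the 3 largest called changes. The other ribosomal protein genes were kept to 156 of 171 listed that RefSeq names as ribosomal. The genes and lists were chosen with earlier results of these data known.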

Additional observations from a re-analysis of the deposited data

Results flagged for a closer look

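A pair of genes was called between mutants in the direct test. *RPS13A* was lower in *se-1* than in *cbp20*, with a log2 fold change of -0.16, and *RPL10B* was lower in *se-1* than in *cbp80*, with a log2 fold change of -0.36. Each was 1 of 40 genes, against a background of 6.24% and 5.95% called lower. The calls held in 2 and 6 of 12 alternative fits. Groups of 3 libraries are too small for a check on single libraries far from the others.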

How the results depend on the processing

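With TMM replaced by library size alone, the number of genes called higher was 1, 0 and 6 for *se-1*, *cbp20* and *cbp80* against WT, and 4 were called lower in *se-1* against *cbp20*. The median log2 fold change was then -0.00195 in *se-1*, 0.0595 in *cbp80* and -0.011 for *cbp80* against *cbp20*, and 15, 1 and 10 of 40 genes changed sign in *se-1*, *cbp20* and *cbp80*, none of them called. The median over all genes was then -0.0890 in *se-1*, -0.0832 in *cbp80* and -0.0322 for *cbp80* against *cbp20*. DESeq2 called 10 genes higher in *se-1* and 10 in *cbp20*, where it called 3558 and 2110 higher over all genes. *RPS13A*, the gene called lower in *se-1* against *cbp20*, was not called with DESeq2 size factors in edgeR or in a fit of the 6 libraries, and *RPL10B*, lower in *se-1* against *cbp80*, was not called in a fit of the 6 libraries, each leaving 0 genes. DESeq2 did not call *RPL10B* there either, and its 1 call was AT3G09630. Without 1 library, the genes called higher numbered 1 to 8 for *se-1*, 1 to 6 for *cbp20* and 7 to 14 for *cbp80*, and 0 to 1 lower in *se-1* against *cbp20* and against *cbp80*. Over all genes, those called higher in these fits numbered 2826 to 3134 for *se-1*, 1484 to 1895 for *cbp20* and 3357 to 3748 for *cbp80*. The median of *cbp80* against *cbp20* then ran from -0.011 to 0.037. Fewer libraries are part of these losses by construction. Of 27 calls of single genes, 6 were kept in every alternative: AT1G01100 in *se-1* and *cbp80*, and *RPL10A*, *RPL10B*, AT5G20290 and *RPS10B* in *cbp80*.

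The replicate number as a block raised the calls in *cbp20* to 10, against 5 without it, and gave 6 in *se-1* and 13 in *cbp80*, against 6 and 14. Over all genes, the block gave 2418 calls higher in *cbp20*, 3676 in *se-1* and 4057 in *cbp80*, against 2090, 3602 and 4125. *RPS13A* lost its call in *se-1* against *cbp20* with the block. Whether the numbers pair the libraries was not settled: deviations of same-numbered libraries correlated only between -0.057 and 0.10. Each *cbp20* library nevertheless correlated best with the WT library of its number. So did the first and the third *se-1* library and the second and the third *cbp80* library. The second *se-1* library and the first *cbp80* library did not. For the paralog ratios the test was repeated only with a pseudocount of 0.5, which also gave 0 of 22 pairs, and with scaling per kb and to library size, which cannot change it. Depth limits *RPL10B*, AT5G59240 and AT2G40010.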
